A study of Rattus norvegicus with 6 samples.

Results

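The 10 genes described here, Odc1, Amd1, Srm, Sms, Sat1, Smox, Paox, Azin1, Oaz1 and Oaz2, make and break down polyamines or regulate that work. They were chosen by gene symbol from a deposited table of 32883 genes measured by RNA sequencing in rat (Rattus norvegicus) prostate tissue. All 10 symbols were found, each in 1 row. Of these, 9 had counts and were tested among 14003 genes, and Srm was listed at 0 in every library. The study compared 3 libraries from rats given testosterone and estradiol under the skin for 4 weeks, as 4 pellets each holding 25 mg of testosterone and 2.5 mg of estradiol, with 3 libraries from control rats that had only an incision and staples. The hormone treatment is used to induce benign prostatic hyperplasia, and one label field names that condition for all 6 libraries, controls included. The labels give no strain, age or prostate lobe. They also do not state whether the 3 tissues of a group are from different rats, so the spread behind each p-value is that between tissues and may be technical. The comparison asked which transcripts differed in prostates under excess hormone.

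Polyamines are small positively charged molecules that bind nucleic acids and are needed for cell growth. Ornithine decarboxylase makes putrescine, and aminopropyl groups drawn from S-adenosylmethionine then turn putrescine into spermidine and spermidine into spermine. Cells also acetylate, oxidise and export polyamines, and antizymes steer ornithine decarboxylase to the proteasome when polyamines are abundant. The prostate is known for making and secreting large amounts of polyamines, spermine above all.

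Total counts ranged from 12931982 to 15949500 per library, and between 17165 and 17741 genes had at least 1 count. The epithelial identity of the tissue was visible in all 6 libraries. The 8 luminal epithelial markers all had counts and together reached 3769 to 3970 CPM in hormone libraries and 2845 to 3657 CPM in controls, where CPM is the count scaled to a common library size by TMM (a factor that makes libraries comparable when a few genes take many reads). Of these markers 7 had a positive log2 fold change and 1 a negative one. EdgeR called 1 higher, Krt8 (log2 fold change 0.95, adjusted p = 0.0164), and DESeq2 called 3 higher. The edgeR call of Krt8 was lost without hormone 1, 2 or 3 or without control 2. The 5 smooth muscle markers summed to 3682 to 5207 CPM in hormone libraries and 3881 to 8100 CPM in controls, with control 1 the highest. The 4 tested leukocyte markers summed to 185 to 328 CPM in hormone libraries and 71.0 to 146 CPM in controls. EdgeR called 0 of the leukocyte markers, and DESeq2 called 4 of the 5 listed higher. The 6 markers of cycling cells summed to 60.8 to 99.4 CPM in hormone libraries and 11.1 to 17.6 CPM in controls, and all 6 were called higher, though none without control 2. Of the seminal vesicle and coagulating gland markers, Svs4 and Svs5 were at 0 in every library, and Semg1 ran from 3481 to 8971 CPM in hormone libraries and from 1074 to 23733 CPM in controls. Pate4 of that list had 0 counts in each hormone library, against 3066, 763 and 1 counts in controls 1 to 3. It was not among the genes tested by edgeR, and DESeq2 called it lower (adjusted p = 0.00255), so the controls differed among themselves in these markers. The part that these other cells play in the results below was not tested. In whole tissue, fewer cells of a type and less RNA per cell cannot be told apart.

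The polyamine genes had modest fold changes in both directions, and edgeR called 0 of the 9 tested. In TMM-scaled CPM, Odc1 and Paox had higher values in every hormone library than in any control, and Amd1, Sms and Oaz1 had lower ones. Sat1, Smox, Azin1 and Oaz2 overlapped between the groups on that scale. In the authors' FPKM (described below), which carries no TMM factor, Paox overlapped and Oaz2 was lower in every hormone library than in any control. With edgeR's quasi-likelihood test 0 of the 9 genes tested passed an adjusted p (Benjamini-Hochberg over all 14003 genes) under 0.05, where 3.27% of all genes tested did. Those calls were 334 genes higher (2.39%) and 124 lower (0.886%). Scaled by library totals alone, the calls were 259 higher and 230 lower. At an unadjusted p under 0.05 there were 4 members, Odc1, Sms, Paox and Oaz1, where 22.8% of all genes tested reached that level. In TMM-scaled CPM groups did not overlap for 5 of the 9 members, 2 higher and 3 lower, where 31.3% of all genes tested showed this, 16.1% higher and 15.3% lower. DESeq2, an alternative count test, called 2 of the 9, Odc1 and Sms, where it called 9.34% of the genes to which it gave an adjusted p, 5.66% higher and 3.68% lower. Sms and Odc1 stood at ranks 581 and 585 of 14003 by edgeR p, outside the 458 genes called. The median log2 fold change was -0.28 over the 9 members, 3 positive and 6 negative, and 0.00 over all genes tested.

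**Figure D1:**
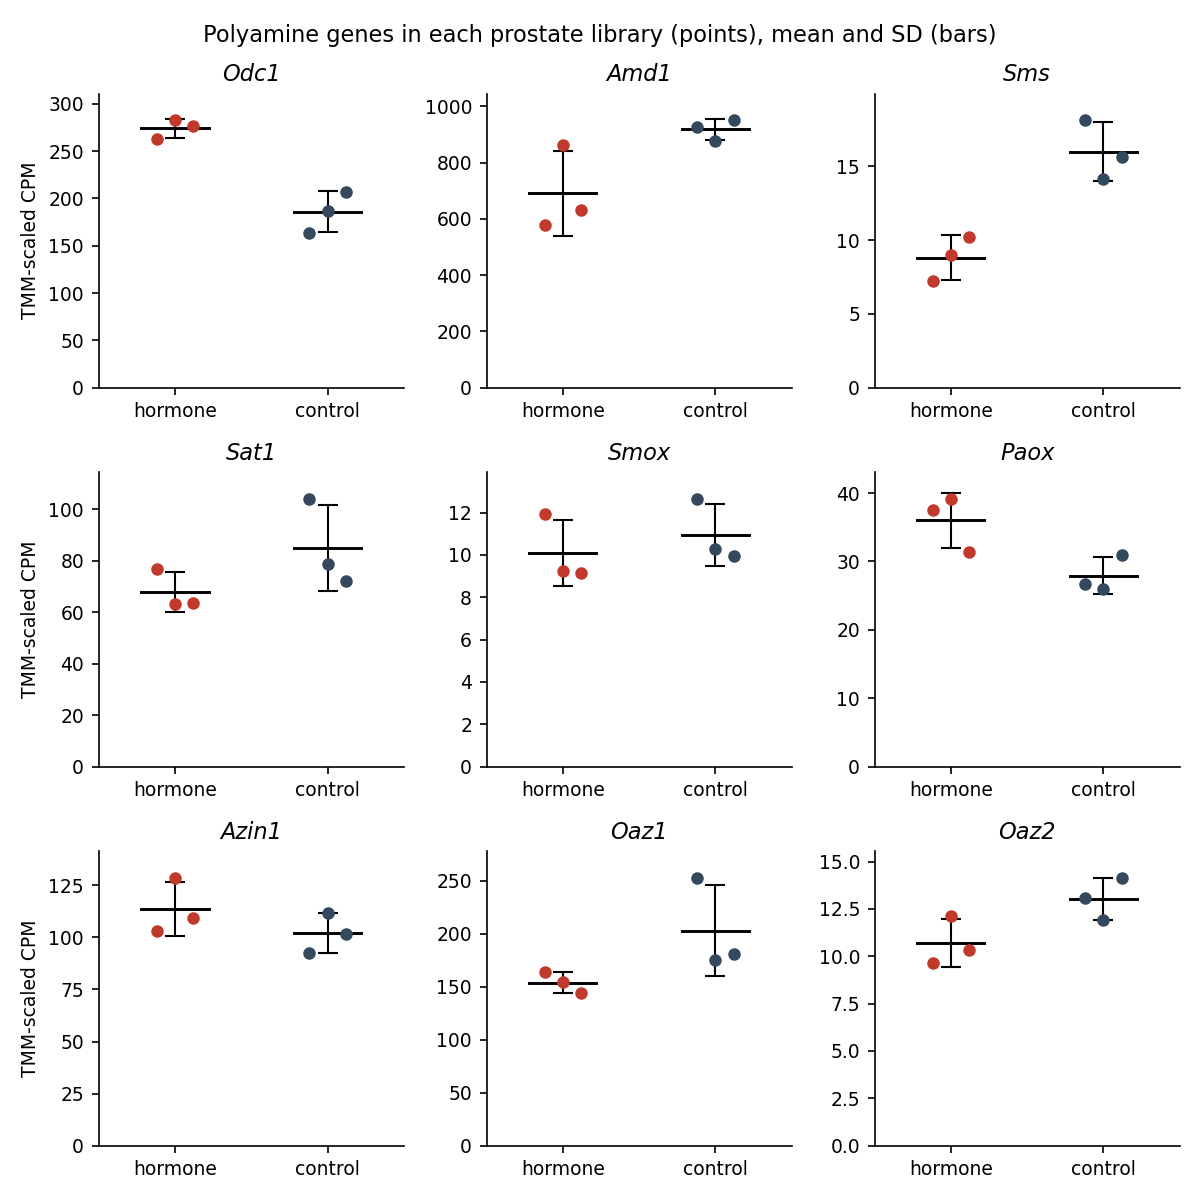
TMM-scaled CPM of each of the 9 tested polyamine genes (one panel per gene, axes from 0) in the 3 hormone and 3 control libraries; points are libraries, the long bar is the mean and the whiskers are the SD. The hormone points of Odc1 and Paox sit above all control points, and those of Amd1, Sms and Oaz1 sit below them.

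Ornithine decarboxylase, the enzyme of the committed step, had higher transcript values under the pellets, by a difference that DESeq2 called and edgeR did not. Odc1 had 263, 283 and 277 CPM in hormone libraries 1 to 3, against 164, 187 and 207 CPM in controls 1 to 3. The hormone values lay close together and every one was above the highest control. The means were 274 ± 10.1 CPM in hormone libraries and 186 ± 21.6 CPM in controls (SD, n = 3 each), 1.47-fold with a 95% interval of 1.20 to 1.80 (edgeR log2 fold change 0.56 ± 0.12 SE). The edgeR adjusted p was 0.0583, just over the threshold, and the DESeq2 adjusted p was 0.00241. The row rests on 2296 to 4086 counts per library. In the table's own coordinates, of a build that the sources used here do not name, Odc1 (ENSRNOG00000005424) spans 42852683 to 42859927 of chromosome 6. An unnamed gene shares 134 bases with that span and had at most 7 counts in a library.

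Spermine synthase, which adds the last aminopropyl group to make spermine, had the largest difference of the 9 tested members, in the other direction, again called by DESeq2 and not by edgeR. Sms had 7.21, 9.01 and 10.2 CPM in hormone libraries 1 to 3, against 18.1, 14.2 and 15.7 CPM in controls 1 to 3. The highest hormone value was well under the lowest control value. The means were 8.82 ± 1.52 CPM in hormone libraries and 16.0 ± 2.00 CPM in controls (SD, n = 3 each), so that the hormone level was 0.552 times the control level (95% interval 0.405 to 0.752, edgeR log2 fold change -0.86 ± 0.19 SE). The edgeR adjusted p was again 0.0583 and the DESeq2 adjusted p was 0.00355. Counts were lower here, 112 to 131 in hormone libraries and 233 to 254 in controls. Sms (ENSRNOG00000007688) spans 40363646 to 40415109 of chromosome X in the table's coordinates.

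Because Odc1 and Sms had the smallest p values of the 9 tested members and opposite directions, the stretch before their start sites is shown, from RefSeq's GRCr8 build, on the plus strand, with GC boxes (GGGCGG or its reverse complement CCGCCC, bound by Sp1-type factors) in capitals. Each is the 250 bases before the start site that the promoter table uses. The Odc1 stretch is chr6:46058415-46058664 and the Sms stretch is chrX:41331753-41332002. RefSeq's gene records begin earlier than those start sites, at 46058439 for Odc1 and 41331693 for Sms. Most of the Odc1 stretch and all of the Sms stretch therefore lie inside the gene records.
Odc1: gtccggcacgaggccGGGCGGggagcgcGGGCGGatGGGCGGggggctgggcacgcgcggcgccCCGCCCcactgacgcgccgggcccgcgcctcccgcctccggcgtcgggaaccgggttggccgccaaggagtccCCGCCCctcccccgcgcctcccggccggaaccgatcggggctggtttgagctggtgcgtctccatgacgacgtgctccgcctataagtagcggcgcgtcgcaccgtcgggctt
Sms: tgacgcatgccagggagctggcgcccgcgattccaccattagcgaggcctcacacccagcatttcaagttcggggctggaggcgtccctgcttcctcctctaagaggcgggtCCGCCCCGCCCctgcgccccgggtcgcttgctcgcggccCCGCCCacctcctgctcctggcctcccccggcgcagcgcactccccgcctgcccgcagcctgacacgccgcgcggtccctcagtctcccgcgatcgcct

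The Odc1 stretch holds 5 GC boxes and the Sms stretch 3, of which 2 overlap by 1 base, and 78.0% and 72.8% of their bases are G or C. Promoter entries matched 9 of the 10 genes, and Azin1 had none. On both strands, GGGCGG was found in 8 of the 9 windows and in 30.5% of all 33469 windows of the same length. Those windows were not limited to genes tested here and were not matched for G and C content. TATAAA, a form of the TATA box, was found before Amd1 and Oaz1 and in 12.9% of all windows, and CACGTG, the E-box bound by Myc and Max, before Srm and Oaz1 and in 5.59%. Only exact letters were searched, so the TATAAG near the end of the Odc1 stretch was not counted. AGAACA and AGGTCA, hexamers that are only part of the site bound by the androgen and the estrogen receptor, were in 0 of the 9 windows, and in 17.5% and 14.1% of all windows. These matches describe letters in short windows and do not show binding. With so few windows, 0 matches at those shares do not show that the genes lack receptor sites.

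The other synthesis genes were Amd1 and Srm. Amd1, S-adenosylmethionine decarboxylase, supplies the aminopropyl donor for both later steps and had the highest CPM of the 10 genes. It had 577, 862 and 633 CPM in hormone libraries 1 to 3, against 928, 879 and 951 CPM in controls 1 to 3. The controls were close together, whereas hormone 2 reached almost to the lowest control. The means were 691 ± 151 CPM in hormone libraries and 919 ± 36.9 CPM in controls (SD, n = 3 each), with an edgeR log2 fold change of -0.41 ± 0.18 (SE; adjusted p = 0.229). Amd1 (ENSRNOG00000000585) spans 45384000 to 45399694 of chromosome 20.

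Srm, spermidine synthase, which makes spermidine from putrescine, is a row with no counts that cannot be read as an absent transcript. The table places Srm (ENSRNOG00000046379) on chromosome 3 at 14588870 to 14591974, between Ggta1l1 and LOC502618. At 3 counts per library, a count of 0 allows up to 0.193 to 0.234 CPM in hormone libraries and 0.182 to 0.214 CPM in controls, for counting error only. In RefSeq's GRCr8 annotation Srm lies on chromosome 5 between Exosc10 and Masp2. Between those same neighbours on chromosome 5 the table has LOC100912604, described there as spermidine synthase-like, at 165405168 to 165408320. That row, picked out after its values were seen, had 75, 95 and 82 counts in hormone libraries 1 to 3, against 47, 104 and 96 counts in controls 1 to 3. It averaged 6.05 ± 1.08 CPM in hormone libraries and 5.28 ± 1.67 CPM in controls (SD, n = 3 each) and did not pass (edgeR log2 fold change 0.19, adjusted p = 0.732), and its groups overlapped. The sources used here do not say how the authors counted reads that map to both places. The interval of the fold, 0.706 to 1.85, leaves room for a moderate change in either direction.

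Of the 3 catabolic genes, Paox had higher CPM in the hormone libraries and Sat1 and Smox overlapped. Paox, the peroxisomal oxidase that cuts acetylated polyamines back to smaller ones, had 37.5, 39.1 and 31.4 CPM in hormone libraries 1 to 3, against 26.7, 26.0 and 31.0 CPM in controls 1 to 3. Hormone 3 was barely above control 3 in CPM. In FPKM it was below control 3 (18.3 against 19.5), so that the groups overlapped. The edgeR log2 fold change was 0.37 ± 0.14 (SE; adjusted p = 0.175). The span of Paox (ENSRNOG00000018838, chromosome 1, 212578450 to 212603529) shares 608 bases with LOC100911186, which had 267 to 379 counts per library, and without the strand setting reads from the shared bases cannot be assigned.

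Sat1, the acetyltransferase that marks spermidine and spermine for oxidation or export, had 76.9, 63.2 and 63.7 CPM in hormone libraries 1 to 3, against 104, 78.9 and 72.1 CPM in controls 1 to 3. Hormone 1 exceeded control 3, and control 1 stood above the rest. The edgeR log2 fold change was -0.32 ± 0.16 (SE; adjusted p = 0.284), and it was -0.15 without control 1. Smox, which oxidises spermine directly, was the least abundant of the 9 per length, at 11.9, 9.23 and 9.14 CPM in hormone libraries 1 to 3, against 12.6, 10.3 and 9.95 CPM in controls 1 to 3. The groups interleaved, with a fold of 0.924 and a 95% interval of 0.679 to 1.26 (edgeR adjusted p = 0.75). Sat1 (ENSRNOG00000003809) spans 43625169 to 43629765 of chromosome X and Smox (ENSRNOG00000021255) spans 124068865 to 124102240 of chromosome 3.

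**Figure D2:**
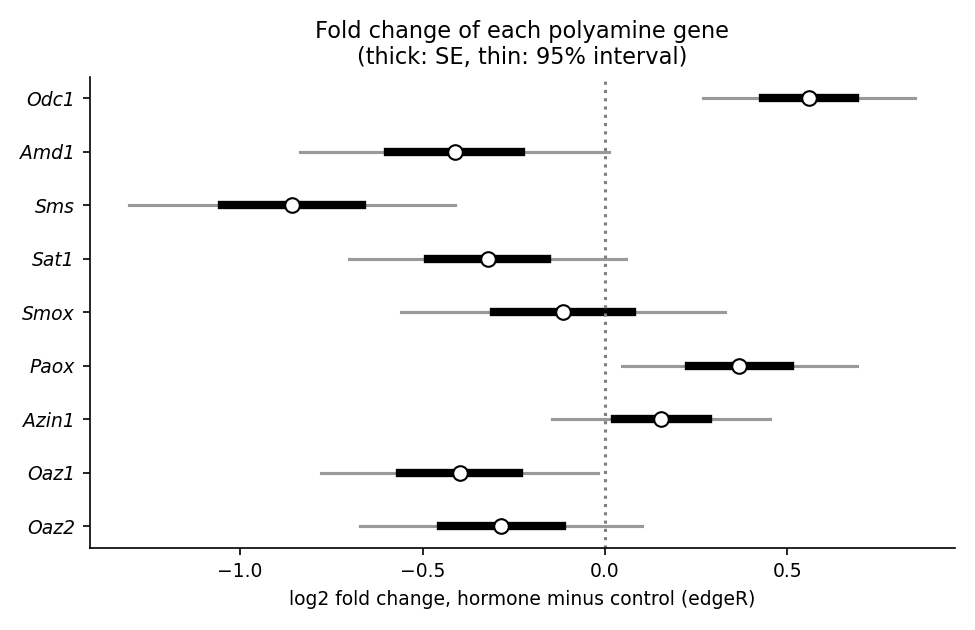
edgeR log2 fold change of each tested polyamine gene, hormone minus control (x axis; 0 is no difference); circles are estimates, thick bars the SE and thin bars the 95% interval. Odc1 (0.56) and Paox (0.37) lie right of 0 and Sms (-0.86) and Oaz1 (-0.40) left of it with intervals that do not reach 0, but none of the 9 passed edgeR's adjustment over all genes tested.

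The regulators of ornithine decarboxylase did not pass either. Oaz1, antizyme 1, which binds the enzyme and sends it to the proteasome, had 164, 155 and 144 CPM in hormone libraries 1 to 3, against 252, 176 and 181 CPM in controls 1 to 3. All hormone values were below all controls, and control 1 stood far above the other controls. The means were 154 ± 9.92 CPM in hormone libraries and 203 ± 42.9 CPM in controls (SD, n = 3 each), with an edgeR log2 fold change of -0.40 ± 0.16 (SE; adjusted p = 0.204). Without control 1, which also had the highest smooth muscle marker sum, the log2 fold change was -0.21 (adjusted p = 0.253). Oaz2, antizyme 2, a less abundant antizyme, had 9.66, 12.1 and 10.3 CPM in hormone libraries 1 to 3, against 13.1, 11.9 and 14.1 CPM in controls 1 to 3, and only hormone 2 reached into the control range. In FPKM its groups did not overlap, at 16.6, 20.7 and 16.9 in hormone libraries 1 to 3, against 25.0, 21.9 and 25.0 in controls 1 to 3. Its edgeR log2 fold change was -0.28 ± 0.17 (SE; adjusted p = 0.346). The 31.3% of all genes tested whose groups did not overlap was counted in TMM-scaled CPM, not in FPKM.

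Azin1, antizyme inhibitor 1, resembles ornithine decarboxylase without its activity and takes antizyme away from it. It had 103, 128 and 109 CPM in hormone libraries 1 to 3, against 92.7, 112 and 102 CPM in controls 1 to 3. These ranges overlapped, with a fold of 1.11 and a 95% interval of 0.905 to 1.37 (edgeR adjusted p = 0.497). In the table's coordinates Oaz1 (ENSRNOG00000019459) spans 11752412 to 11754508 and Azin1 (ENSRNOG00000005333) 77345646 to 77372398 of chromosome 7, and Oaz2 (ENSRNOG00000015953) spans 71216178 to 71228713 of chromosome 8. Antizyme protein depends on ribosomal frameshifting as well as on transcript level, and these data hold transcript levels only.

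Levels of different genes were compared per length, as the authors' FPKM (counts per unit of gene length and per counted read of that library). In hormone libraries Oaz1 averaged 216 ± 18.8 FPKM and Amd1 209 ± 47.0 FPKM (SD, n = 3 each), and in controls they averaged 312 ± 77.4 and 302 ± 14.3 FPKM. These were the 2 most abundant members in every library, at about the 98th percentile of the genes tested (98.4 and 98.3), and their order changed between libraries of the same group. The next pair changed places between the groups. Odc1 averaged 58.7 ± 2.05 FPKM and Sat1 42.6 ± 5.61 FPKM in hormone libraries, against 43.3 ± 3.43 and 58.3 ± 13.7 FPKM in controls. Odc1 was above Sat1 in 3 of 3 hormone libraries and below it in 3 of 3 controls.

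Azin1, Paox and Oaz2 followed within a narrow band. In hormone libraries they averaged 25.0 ± 3.04, 21.6 ± 2.88 and 18.1 ± 2.26 FPKM, and in controls 24.5 ± 2.02, 18.2 ± 1.29 and 24.0 ± 1.81 FPKM. The ranges of Azin1 and Oaz2 overlapped in controls. Those of Azin1 and Paox overlapped in hormone libraries, although Azin1 was above Paox in each of the 3. Sms, at 5.20 ± 0.79 FPKM in hormone libraries and 10.3 ± 1.60 FPKM in controls, and Smox, at 3.23 ± 0.56 and 3.82 ± 0.65 FPKM, were the lowest of the 9 in every library. The antizyme levels depend on the short gene lengths implied by the table, 681 bases for Oaz1 and 567 for Oaz2.

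**Figure D3:**
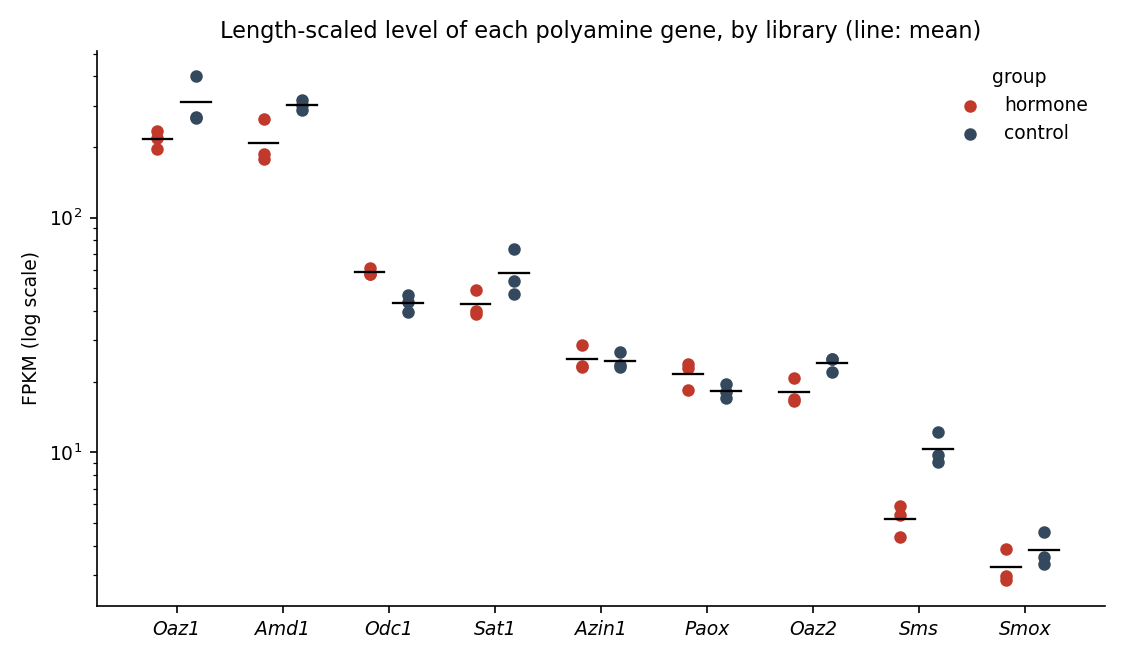
Deposited FPKM of the 9 tested polyamine genes on a log axis, ordered by hormone mean; points are libraries (hormone left, control right of each pair) and lines are means. Amd1 and Oaz1 lie above the rest, Odc1 lies above Sat1 in hormone libraries only, and Sms and Smox are lowest.

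Ratios between 2 genes of the same library do not depend on how libraries are scaled, and they are given as a description, without a test. The ratio of Odc1 to Oaz1 FPKM was 0.245, 0.279 and 0.294 in hormone libraries 1 to 3, against 0.0989, 0.163 and 0.175 in controls 1 to 3. The ratio of Odc1 to Sat1 was 1.17, 1.53 and 1.49 in hormone libraries, against 0.539, 0.811 and 0.981 in controls. For both ratios every hormone library was above every control. The ratio of Odc1 to Amd1, chosen after its values were seen, was 0.289 ± 0.049 in hormone libraries and 0.144 ± 0.016 in controls (SD, n = 3 each), also without overlap. In FPKM, Odc1 by itself was higher without overlap, and Oaz1 and Amd1 by themselves were lower without overlap. The separation of Odc1 to Oaz1 and of Odc1 to Amd1 follows from that and is no further result. Sat1 by itself overlapped in FPKM. No share over other gene pairs is given here.

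The ratio of the antizyme inhibitor to the antizyme was less separate. Azin1 to Oaz1 was 0.0990, 0.130 and 0.119 in hormone libraries, against 0.0576, 0.0999 and 0.0882 in controls, and hormone 1 fell just inside the control range. Smox to Paox was 0.150 ± 0.022 in hormone libraries and 0.211 ± 0.041 in controls, with hormone 1 at 0.169 almost touching control 3 at 0.171. The 4 synthesis genes summed to 239, 329 and 250 FPKM in hormone libraries 1 to 3, against 369, 341 and 358 FPKM in controls 1 to 3, a sum made up mostly of Amd1. The 3 catabolic genes summed to 67.5 ± 7.96 FPKM in hormone libraries and 80.4 ± 14.1 FPKM in controls, and their ranges overlapped. The 3 regulators summed to 274, 268 and 237 FPKM in hormone libraries 1 to 3, against 450, 317 and 315 FPKM in controls 1 to 3, lower without overlap and made up mostly of Oaz1. FPKM carries no TMM factor, and on library totals alone the median log2 fold change of all genes was -0.13.

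**Figure D4:**
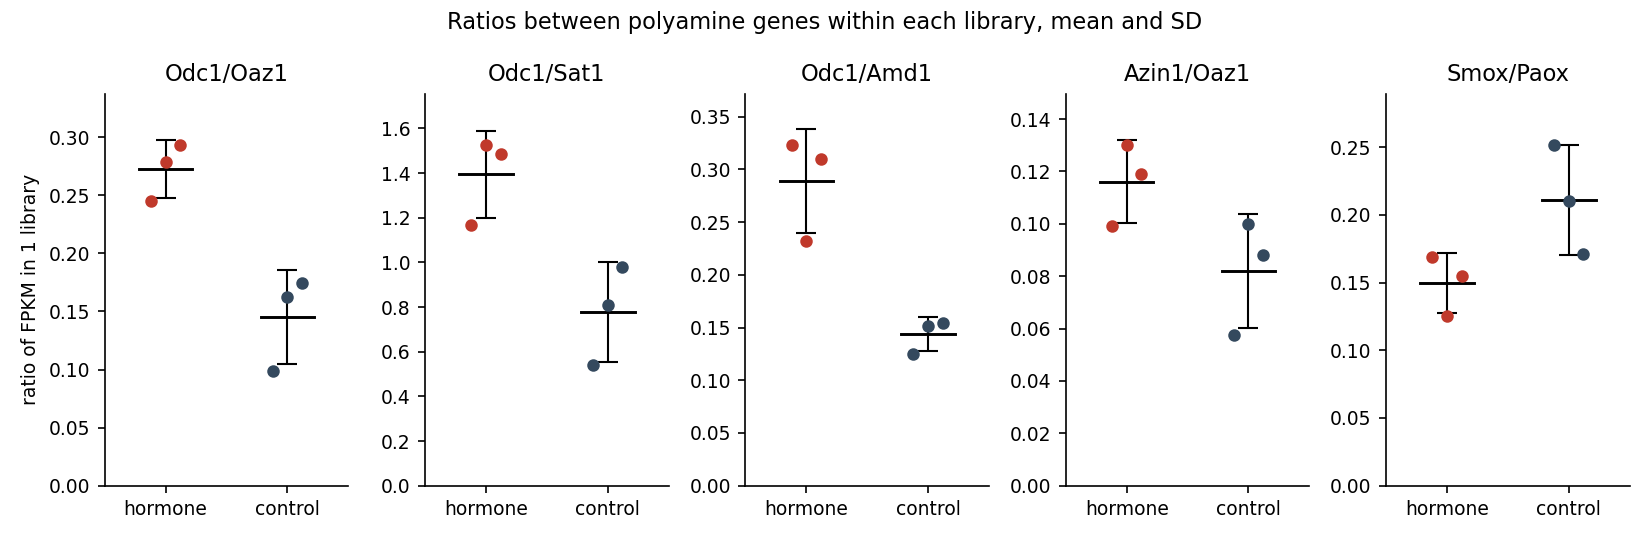
Ratio of FPKM between 2 polyamine genes within each library (one panel per ratio, axes from 0); points are libraries, bars are means and whiskers the SD. Odc1 relative to Oaz1, Sat1 or Amd1 is higher in all 3 hormone libraries than in any control, Azin1 relative to Oaz1 overlaps, and Smox relative to Paox is lower by a narrow margin.

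The genes that feed or use the pathway gave few calls. Of 49 genes in 7 lists, 40 were tested with edgeR, of which 1 rose and 0 fell, where 3.27% of all genes tested were called. At an unadjusted p under 0.05 there were 11 of the 40, where 22.8% of all genes tested reached that level, and DESeq2 called 3 higher and 3 lower, where it called 5.66% of all genes higher and 3.68% lower. The gene that rose was Sbp, the spermine-binding protein that the rat prostate secretes. Sbp had 25.0, 88.1 and 35.1 CPM in hormone libraries 1 to 3, against 1.43, 1.21 and 2.95 CPM in controls 1 to 3, so that the lowest hormone library was far above every control. Its edgeR log2 fold change was 4.72 ± 0.59 (SE; adjusted p = 0.0119), and the call was lost without control 2 (adjusted p = 0.0636). Other prostate secretion markers did not rise with Sbp. Msmb had 891 ± 468 CPM in hormone libraries and 2713 ± 1148 CPM in controls, without overlap (edgeR log2 fold change -1.61, adjusted p = 0.128). DESeq2 called Msmb lower (adjusted p = 0.00675), and Pbsn had 0 counts in every library. Tgm4, the prostate transglutaminase, whose enzyme family can couple polyamines to proteins, had 95163 ± 15070 CPM in hormone libraries and 97984 ± 28829 CPM in controls (SD, n = 3 each; edgeR log2 fold change -0.04, adjusted p = 0.956).

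Arginine and ornithine supply had 0 of 10 genes called by edgeR (4 at an unadjusted p under 0.05, against 22.8% of all genes tested) and a median log2 fold change of 0.42, with 7 positive. Arg2, the mitochondrial arginase that releases ornithine, had 9.98, 18.5 and 10.9 CPM in hormone libraries 1 to 3, against 7.35, 5.71 and 5.52 CPM in controls 1 to 3, without overlap (edgeR log2 fold change 1.08 ± 0.28 SE, adjusted p = 0.0811). It was the 1 gene of this list that DESeq2 called (adjusted p = 0.00906), where DESeq2 called 9.34% of all genes. Ass1, argininosuccinate synthase of arginine synthesis, had an edgeR log2 fold change of 0.86 (adjusted p = 0.123).

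The methionine cycle and the salvage of methylthioadenosine, the by-product of both aminopropyl transfers, had 0 of 12 tested genes called by edgeR (3 at an unadjusted p under 0.05, against 22.8% of all genes tested; 3 called by DESeq2, against 9.34% of all genes) and a median log2 fold change of -0.12. Enoph1, a salvage enzyme, had 82.0 ± 14.8 CPM in hormone libraries and 130 ± 9.09 CPM in controls (SD, n = 3 each; edgeR log2 fold change -0.66, adjusted p = 0.0635). Mat1a, an S-adenosylmethionine synthetase, had 5.22 ± 2.47 CPM in hormone libraries and 13.3 ± 2.88 CPM in controls (log2 fold change -1.35, edgeR adjusted p = 0.0787). Neither gene's groups overlapped, and DESeq2 called both lower (adjusted p = 0.00503 and 0.0062). DESeq2 also called Ahcy higher, which removes S-adenosylhomocysteine and was named after its values were seen (adjusted p = 0.0435; edgeR adjusted p = 0.108). Mat2a, a more abundant S-adenosylmethionine synthetase than Mat1a, was likewise named after its values were seen. It had 301 ± 43.1 CPM in hormone libraries and 249 ± 27.4 CPM in controls (SD, n = 3 each). Its groups overlapped (edgeR log2 fold change 0.27, adjusted p = 0.325).

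The hypusine pathway, which uses spermidine to modify the translation factor encoded by Eif5a, had 0 of 4 genes called by edgeR. DESeq2 also called 0. Over all genes edgeR called 3.27% and DESeq2 9.34%. At an unadjusted p under 0.05 there was 1 of the 4, where 22.8% of all genes tested reached that level. All 4 log2 fold changes were negative, where 49.9% of those of all genes tested were positive. Eif5a itself had 281 ± 7.61 CPM in hormone libraries and 358 ± 58.9 CPM in controls (SD, n = 3 each; edgeR log2 fold change -0.35, adjusted p = 0.208). Its relative Eif5a2 had a log2 fold change of -0.55 (edgeR adjusted p = 0.28). Among transport genes 0 of 6 tested were called by edgeR and 0 by DESeq2 (1 at an unadjusted p under 0.05, against 22.8% of all genes tested). Slc22a3, an organic cation transporter, had 4 to 12 counts in hormone libraries and 17 to 28 in controls (edgeR log2 fold change -1.45, adjusted p = 0.172), and the lysosomal polyamine exporter Atp13a2 had 0.29 (adjusted p = 0.293).

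The remaining enzymes and regulators, Azin2 and Sat2, differed by -0.82 and -0.42 on edgeR's log2 scale (adjusted p = 0.231 and 0.24). At an unadjusted p under 0.05 there were 0 of 2, against 22.8% of all genes tested, and DESeq2 called 0, against 9.34% of all genes. Of the Myc family, whose members bind the E-box, 0 of 3 tested were called by edgeR (1 at an unadjusted p under 0.05, against 22.8% of all genes tested). Myc had 31.6 ± 6.44 CPM in hormone libraries and 33.3 ± 0.95 CPM in controls (SD, n = 3 each; edgeR adjusted p = 0.814), and Mycl had a log2 fold change of -0.11 (edgeR adjusted p = 0.769). Max, the binding partner of Myc, had 113, 117 and 108 CPM in hormone libraries 1 to 3, against 185, 158 and 146 CPM in controls 1 to 3. Its edgeR log2 fold change was -0.53 ± 0.12 (SE; adjusted p = 0.0607). DESeq2 called it lower (adjusted p = 0.00288), where it called 3.68% of all genes lower.

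**Figure D5:**
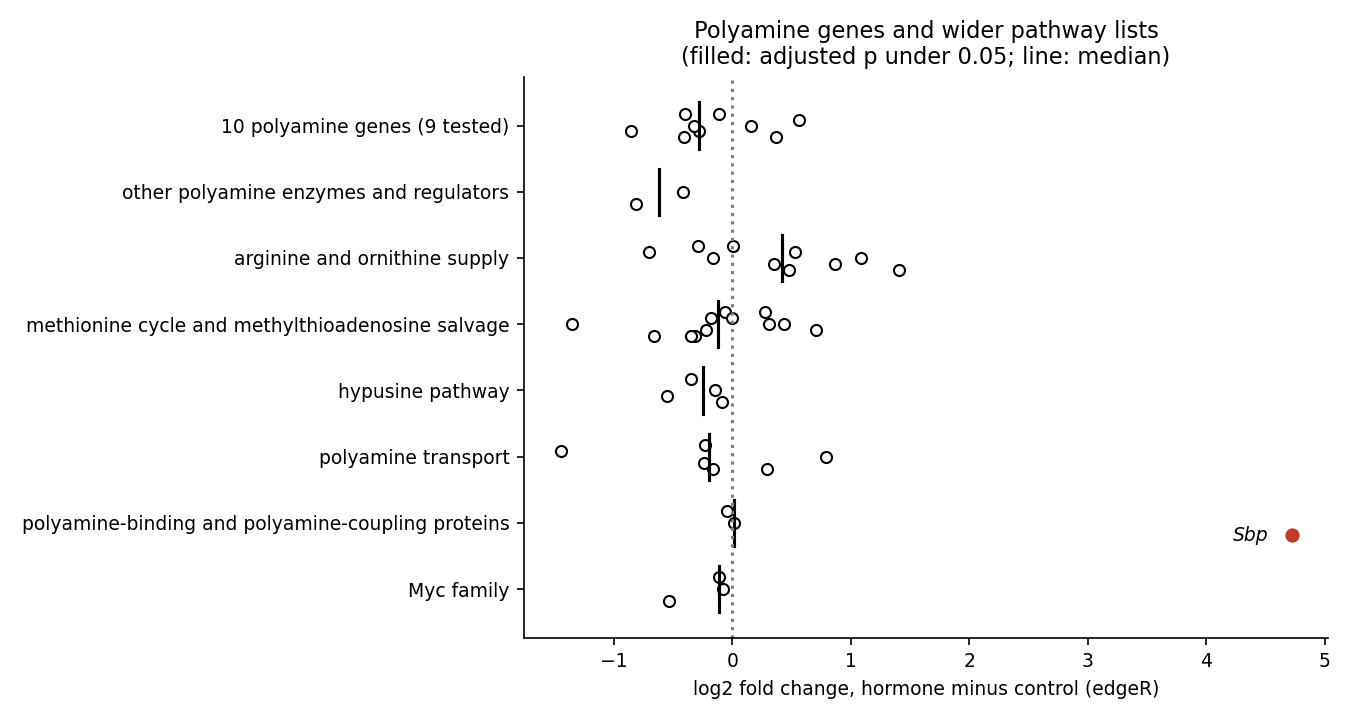
edgeR log2 fold change, hormone minus control (x axis), of the tested polyamine genes and of the tested genes of 7 related lists; each circle is a gene, filled where the adjusted p was under 0.05, and the vertical line is the list median. Sbp is the 1 filled circle, at 4.72, and the polyamine genes lie between -0.86 and 0.56.

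The 3 genes whose pattern over the 6 libraries was most like that of Odc1 were Sdf4, Eri1 and Helz, out of 10856 genes with a mean of at least 5 CPM. Likeness was measured as the root mean square difference of centred log2 CPM, which was 0.0513 for Sdf4, 0.0529 for Eri1 and 0.056 for Helz. Sdf4, a calcium-binding protein of the secretory pathway, had 373 ± 10.8 CPM in hormone libraries and 240 ± 30.4 CPM in controls (SD, n = 3 each). Eri1, an exoribonuclease, had 36.6 ± 1.43 CPM in hormone libraries and 25.3 ± 1.98 CPM in controls, and Helz, an RNA helicase, had 43.3 ± 0.97 and 28.5 ± 4.49 CPM. Their edgeR adjusted p values were 0.0504, 0.0572 and 0.0659. With 6 libraries in 2 groups such likeness mostly records the difference between the groups.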

How the data were processed

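RNA was profiled from 6 rat prostate tissues. The labels' protocols name a column kit for total RNA and a TruSeq kit for paired-end libraries. The submitters' processing notes name the tools Bowtie2, HTSeq and TopHat. Versions, genome build, annotation, strand setting and handling of multiply mapped reads are not stated in those sources. Per the file headers, the authors deposited a raw read count and an FPKM value for each gene and library.

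Groups and replicate numbers come from the sample titles. The whole count table was analysed with edgeR 4.0.16 (R 4.3.3). filterByExpr (minimum count 10, minimum total count 15) kept 14003 genes, TMM factors scaled the libraries, and a robust quasi-likelihood F-test, two-sided with 4 residual degrees of freedom, compared hormone with control. A gene was called at a Benjamini-Hochberg adjusted p under 0.05 over all genes tested. The SE is the log2 fold change over the root of its F statistic, and 95% intervals use that SE. DESeq2 1.42.0 and limma 3.58.1 on log2(FPKM + 1) or log2(FPKM + 0.1) were alternatives, with other scalings, filters, a replicate block and each library left out. Libraries within a group differed beyond sampling noise (chi-square per gene 22.7 to 113), so none was counted as a duplicate.

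The members, related lists and tests were chosen with earlier results of these data known. From the related lists the text names called genes, the 2 with the smallest p in each list, Sbp, Tgm4, Myc and Eif5a, and, after its values were seen, Mat2a. A planned ratio of Srm to Sms was not formed because Srm had no counts. Promoter letters are from RefSeq (GRCr8).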

Additional observations from a re-analysis of the deposited data

How the results depend on the processing

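With edgeR 0 of the 9 tested polyamine genes were called, and 0 were called with RLE factors, with the 10 most abundant genes removed, with no filter on low counts, with a mean of at least 5 CPM, with limma on log2(FPKM + 1) without a filter, and with the LOC100912604 row taken for Srm (added after seeing the data). DESeq2 called 2 (Odc1 and Sms), where it called 9.34% of all genes. Library totals without TMM called 1, limma on log2(FPKM + 1) called 1, and limma on log2(FPKM + 0.1) called 1, in each case Sms (adjusted p = 0.0441, 0.0458 and 0.0455). Over all genes, library totals called 259 higher and 230 lower of 14003. Limma called 140 higher and 116 lower on log2(FPKM + 1), and 146 higher and 115 lower on log2(FPKM + 0.1), each of 12924. The cause was not tested. Library totals alone put the median log2 fold change of all genes at -0.13. FPKM also carries no TMM, and limma gave medians of -0.11 on log2(FPKM + 1) and -0.12 on log2(FPKM + 0.1). For Sms, limma on log2(FPKM + 1) gave a log2 fold change of -0.87 with or without the filter. Without the filter Sms was not called (limma adjusted p = 0.0734). DESeq2, with a median of -0.0016 over all genes, called Sms at a log2 fold change of -0.85. Leaving out each library in turn gave 0 to 0 calls, with fewer residual degrees of freedom. Over all genes these fits called from 51 higher and 13 lower (without control 2) to 313 higher and 150 lower (without control 1). In those 6 fits the log2 fold change of Odc1 ran from 0.48 to 0.64 (adjusted p from 0.0529 to 0.191) and that of Sms from -0.97 to -0.73 (0.0829 to 0.158). All 9 genes kept their direction in all 16 alternatives fitted for them, though Smox came to -0.00065 without control 1. With the replicate number as a block, 0 were called. Same-numbered deviations correlated at 0.0829, -0.057 and 0.0698, so the numbers were not taken as pairs, and not every library correlated best with its own number. Depth limits Sms, Smox, Oaz2 and LOC100912604 most, with 47 to 254 counts per library.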
